A study of Mus musculus with 5 samples.

Results

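The SLAM family receptors are immunoglobulin-type surface proteins of white blood cells. Of this family 8 genes are described here, Slamf1, Slamf6, Slamf7, Slamf8, Slamf9, Cd48, Cd84 and Ly9. Every probe set that the platform annotation assigns to a member was taken, which gave 13 of the 45101 probe sets in the deposited table, and 0 of them named a second gene. All 13 passed the filter on low values. The family was chosen by the measured Slamf8 difference between the groups, which was known when it was picked. The comparison that chose the family is also the study's single comparison, so the differences below are a description, and the members' p-values support nothing beyond it.

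The cells came from plugs of Matrigel, a gel of basement membrane proteins, placed under the skin of adult Balb/c SCID mice aged 7 to 12 weeks that carried an Idiotype-specific T-cell receptor transgene. The tumoricidal group (3 arrays) came from plugs holding MOPC315, a mouse myeloma line whose antibody idiotype the transgenic receptor recognises. The control group (2 arrays) came from plugs holding an antigen-loss MOPC315 variant, in TCR-transgenic SCID hosts of the same background, and is labelled non-tumoricidal. In both groups CD11b+ cells were sorted at day 8, and the labels call the arrays biological replicates without saying whether animals were pooled. Mice of the SCID genotype nearly lack B and T lymphocytes, but a T-cell receptor transgene lets T cells that carry it develop, so these hosts can hold T cells. CD11b, the integrin used for the sort, is also carried by natural killer cells and granulocytes.

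Most SLAM receptors bind a copy of themselves on the next cell, while Cd48 is a ligand for the related receptors Cd244a and Cd2. Tyrosine motifs in the tails of Slamf1, Slamf6, Slamf7, Cd84 and Ly9 recruit small adaptors such as SAP, encoded by Sh2d1a, or phosphatases, so that the same receptor can activate or restrain a cell. Slamf8 and Slamf9 have short tails that lack these motifs, and Cd48 is held in the membrane by a lipid anchor. In mouse macrophages Slamf8 is known as a brake on the phagocyte oxidase, and Slamf7 as a receptor that helps them to engulf blood-derived tumour cells.

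Values are signals after each array was scaled to a common median, and signals at or below a floor of 4.79 were raised to it before log2 was taken. Array medians before scaling were between 15.4 and 18.7 in tumoricidal samples and between 18 and 22.6 in control samples. By their spike-in controls the arrays formed 2 batches that each hold both groups: tumoricidal replicate 3 shares batch B with control replicate 2, and the other arrays make up batch A. The BioC signal was between 490.8 and 695 in batch A and between 173.4 and 193.8 in batch B. Of 13 macrophage markers 0 were at the floor on any array, and their summed signal was between 38733 and 59124 in tumoricidal samples and between 34789 and 49023 in control samples. Tumoricidal replicate 2 stood apart in its T-cell markers: 13 summed to 1936 there, to 222 and 277 on the other tumoricidal arrays and to 169 and 268 on the control arrays. The 11 natural killer cell markers summed to between 1624 and 4901 in tumoricidal samples and to between 313 and 730 in control samples, the lowest tumoricidal sum being that of replicate 3. The 11 plasma cell or myeloma markers summed to between 3914 and 5317 in tumoricidal samples and to between 5883 and 6678 in control samples, but they were split, with 6 negative and 5 positive log2 differences. With so few arrays, every value here has limited precision.

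Slamf8 carried the clearest difference in the family. Its single probe set (1425294_at) had signals of 1131, 989 and 1159 in tumoricidal replicates 1 to 3, against 90.1 and 114.6 in control replicates 1 and 2. All tumoricidal arrays lay far above both control arrays, and the arrays within a group were close together: Slamf8 had the smallest spread within groups of the 8 members, 0.17 on the log2 scale, where the other members ran from 0.29 (Cd48) to 0.84 (Ly9). The group means were 1093 ± 91.1 (SD, n = 3) in tumoricidal samples and 102 ± 17.3 (SD, n = 2) in control samples, a 10.7-fold ratio. The log2 difference was 3.42 (SE 0.25), the 34th highest of 41053 probe sets tested. Batch A alone gave 3.55 and batch B 3.34, and without tumoricidal replicate 2 the difference was 3.49. In these sorted bulk samples, fewer cells that carry a transcript and less of it per cell cannot be told apart.

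**Figure D1:**
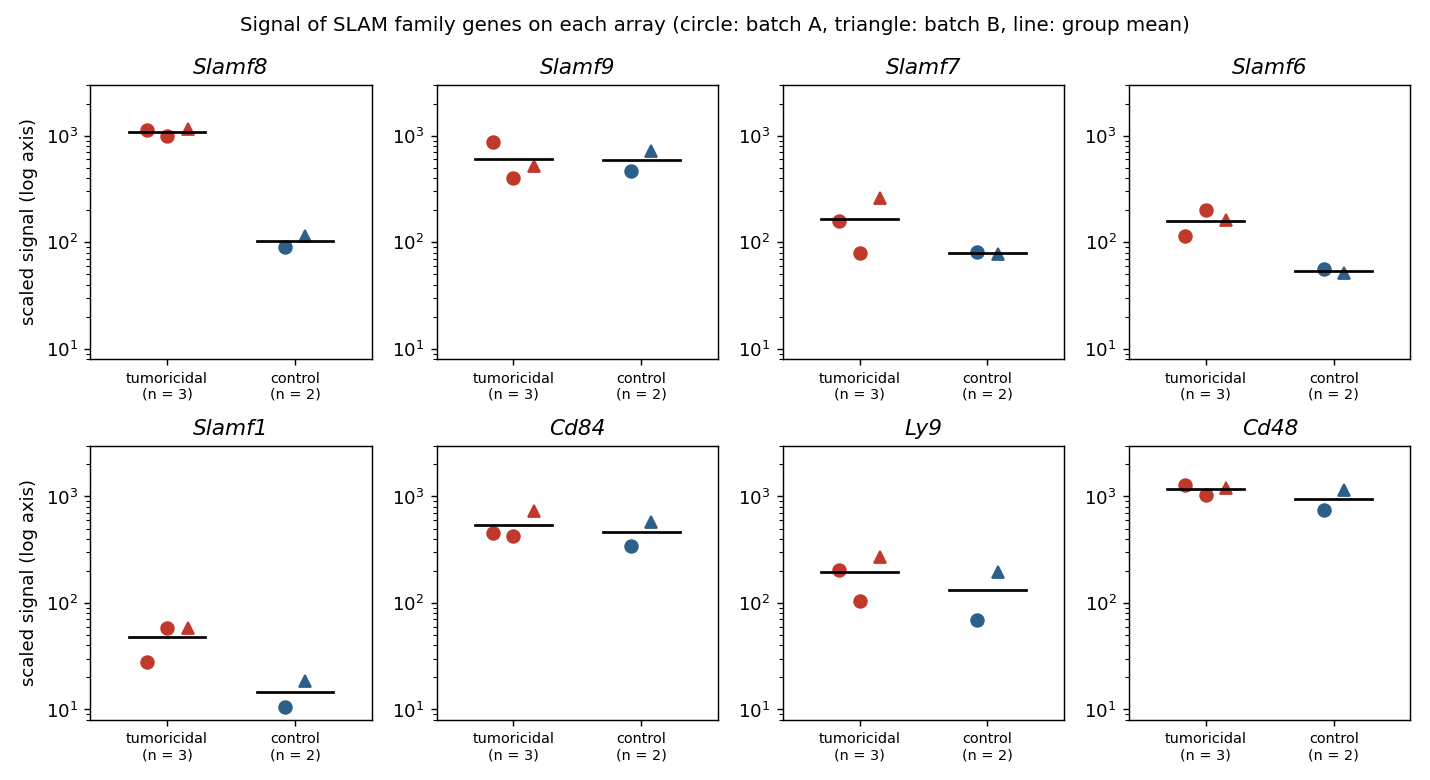
Scaled signal (log axis) of the 8 SLAM family genes on each array, tumoricidal left of control, with circles for batch A, triangles for batch B and lines for group means. Slamf8 lies between 989 and 1159 on the 3 tumoricidal arrays and between 90.1 and 114.6 on the 2 control arrays, while Slamf9, Slamf7, Cd84, Ly9 and Cd48 overlap between the groups.

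In the limma fit, 1 of the 8 members (Slamf8, adjusted p = 0.0481) passed the threshold of 0.05, beside 0.0512% of all tested probe sets in either direction. As the family was picked for this gene, nothing is read from that count. The call sat at the edge of the threshold: 0 members passed with any single array left out, with the batch as a block or with a lower floor, while the Slamf8 difference itself stayed between 3.20 and 3.60 over 18 alternatives.

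Promoter sequences were looked up for the members because Slamf8 moved apart from the rest of its family. RefSeq (GRCm38.p6) gave one for 7 of the 8, all except Ly9, each covering the bases just before and after the annotated start. A set of 3 short motifs bound by interferon-activated factors were searched on both strands: the interferon-stimulated response core GAAANNGAAA (TTTCNNTTTC on the other strand), the gamma-activated site TTCNNNGAA and the ETS-IRF composite GGAANNGAAA (TTTCNNTTCC on the other strand). The response core was found in 1 of the 7 promoters, that of Slamf8, and in 3.44% of 32851 mouse promoters of the same length. The gamma-activated site was found in 0 of 7 and in 8.3% of all, and the composite in 0 of 7 and in 2.72% of all. Core and composite end in the same letters, so that matches of both can overlap, which did not occur in a member. The 250 bases before the start are shown 5′ to 3′ on the gene's own strand for Slamf8, for its short-tailed relative Slamf9, and for Slamf6, with any match in capitals. Slamf8 is at chr1:172590569-172590818 (minus strand), Slamf9 at chr1:172475110-172475359 (plus strand) and Slamf6 at chr1:171917212-171917461 (plus strand).
Slamf8: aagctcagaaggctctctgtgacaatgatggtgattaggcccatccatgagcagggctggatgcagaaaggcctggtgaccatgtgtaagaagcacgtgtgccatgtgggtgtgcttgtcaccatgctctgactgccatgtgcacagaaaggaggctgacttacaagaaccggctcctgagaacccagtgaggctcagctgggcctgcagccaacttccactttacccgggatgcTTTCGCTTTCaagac
Slamf9: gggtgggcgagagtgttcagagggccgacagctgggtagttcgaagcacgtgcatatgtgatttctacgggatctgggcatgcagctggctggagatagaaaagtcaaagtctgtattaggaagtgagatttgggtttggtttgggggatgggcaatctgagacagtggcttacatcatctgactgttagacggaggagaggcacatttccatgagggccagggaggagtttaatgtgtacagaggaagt
Slamf6: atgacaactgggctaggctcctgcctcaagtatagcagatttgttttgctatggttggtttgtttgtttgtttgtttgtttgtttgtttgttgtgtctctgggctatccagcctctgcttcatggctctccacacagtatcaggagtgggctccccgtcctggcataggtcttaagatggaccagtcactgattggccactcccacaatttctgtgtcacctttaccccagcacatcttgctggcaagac
The Slamf8 match runs from 15 to 6 bases before the annotated start, on the strand opposite to the core as written. A match is a string of letters and not a shown binding site, and its absence says nothing about a factor's binding elsewhere.

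Slamf9, which like Slamf8 has a short tail and is found on macrophages, did not share the Slamf8 pattern. It had signals of 882, 399 and 515 in tumoricidal replicates 1 to 3, against 471 and 713 in control replicates 1 and 2. The highest and the lowest of the 5 arrays were both tumoricidal, so the groups overlapped fully. The log2 difference was -0.03 (SE 0.42), and batches A and B gave 0.33 and -0.47. Its sign changed under 5 of 18 alternatives.

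Slamf6 and Slamf1, receptors best known from T cells, natural killer cells and other lymphocytes, were the next highest. Slamf6 (1420659_at) had signals of 114, 201 and 161 in tumoricidal replicates 1 to 3, against 55.9 and 51.9 in control replicates 1 and 2. Every tumoricidal array was above both control arrays, and the log2 difference was 1.52 (SE 0.32, limma adjusted p = 0.278). A second Slamf6 probe set (1425086_a_at) gave 81.8, 124 and 108 in tumoricidal samples and 34.8 and 32.8 in control samples, a log2 difference of 1.61 (SE 0.28). The third, 1457773_at, was dim and ran the other way: 9.15, 8.09 and 8.42 in tumoricidal samples, against 16.6 and 11 in control samples (log2 difference -0.66, SE 0.28). The 2 brighter probe sets of Slamf6 thus gave the same direction and nearly the same size, with the third opposed.

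Slamf1, a self-binding receptor of activated lymphocytes and macrophages, was dimmer. Its brightest probe set (1425570_at) had signals of 28, 58 and 58.8 in tumoricidal replicates 1 to 3, against 10.4 and 18.7 in control replicates 1 and 2. The groups did not overlap, and the log2 difference was 1.71 (SE 0.46, limma adjusted p = 0.406). A second probe set, 1425569_a_at, had 10.3, 30.7 and 25 in tumoricidal samples and 8.36 and 7.1 in control samples (log2 difference 1.37, SE 0.51). The third, 1425571_at, was at the floor on all 3 tumoricidal arrays and on control replicate 2, with 9.88 on control replicate 1, and so measured no difference of use.

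Slamf6 and Slamf1 are set here beside the T-cell and natural killer cell markers. Of 13 T-cell markers 4 had all tumoricidal arrays above both controls and 9 overlapped, beside 13.3% of all tested probe sets. Tumoricidal replicate 2, with the highest T-cell sum, was also highest for Slamf6. Without it the Slamf6 difference was 1.33 and the Slamf1 difference 1.54. The T-cell markers with the largest differences, Cd3g and Cd247, then stood at 1.38 and at least 1.29, Cd247 being at the floor on control replicate 2. Within batch B, which does not hold that array, Slamf6 and Slamf1 differed by 1.64 and 1.65, Cd3g by 1.61 and Cd247 by at least 1.29. The other T-cell markers were mixed within batch B. Cd4, Cd5 and Cd28 were lower there (-0.90, -0.55 and -1.11), as were Cd6 and Cd8a (at most -0.65 and -0.50, with tumoricidal replicate 3 at the floor). The rest were higher. Within batch A Slamf6 and Slamf1 differed by 1.43 and 1.95, and Cd3g and Cd247 by 2.42 and 2.81. The natural killer cell sum of tumoricidal replicate 3, the lowest of its group, stood beside a Slamf1 signal level with that of replicate 2. Most of that sum of 1624 came from the granzyme genes Gzma (549) and Gzmb (420), so it mainly reads these 2 genes. What part lymphocytes in the sort had in these values was not tested.

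Slamf7, the receptor tied to engulfment of blood-derived tumour cells and also a surface marker of plasma cells and myeloma, varied among the tumoricidal arrays. It gave signals of 157, 79.3 and 262 in tumoricidal replicates 1 to 3, against 81.4 and 77.7 in control replicates 1 and 2. Tumoricidal replicate 2 was level with the controls and replicate 3 was the highest, so the groups overlapped. The log2 difference was 0.90 (SE 0.52, limma adjusted p = 0.782). Batch A alone gave 0.46 and batch B 1.76. Without tumoricidal replicate 3 it was 0.49, and without replicate 2 it was 1.35, so these arrays set its size. The plasma cell or myeloma markers, which share this gene's known sources, summed lower in every tumoricidal sample than in either control sample. They were split, however, with 6 of 11 negative and 5 positive, the bright Xbp1 (0.30) among the positive ones. Their part in the Slamf7 values was not tested.

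Cd48, the lipid-anchored ligand, was bright in all samples. It had signals of 1289, 1026 and 1208 in tumoricidal replicates 1 to 3, against 753 and 1149.7 in control replicates 1 and 2. Control replicate 2 lay among the tumoricidal arrays, and the log2 difference was 0.33 (SE 0.29), and batches A and B gave 0.61 and 0.07. Without control replicate 1 it was 0.02.

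Cd84, a self-binding receptor of many white blood cells, had signals of 458, 424 and 723 in tumoricidal replicates 1 to 3, against 344 and 576 in control replicates 1 and 2. Batch B gave the higher signal in each group, and the log2 difference was 0.22 (SE 0.37). It was -0.15 without control replicate 1 and 0.59 without control replicate 2, and its sign changed under 5 of 18 alternatives. Its other probe set (1446505_at) differed by 0.14 (SE 0.31), and both probe sets overlapped between the groups. Ly9, a self-binding receptor best known from lymphocytes, had 205, 105 and 271 in tumoricidal replicates 1 to 3, against 69.4 and 197 in control replicates 1 and 2. It was the most variable member within groups, and its log2 difference of 0.63 (SE 0.60) became -0.13 without control replicate 1 and 1.38 without control replicate 2.

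**Figure D2:**
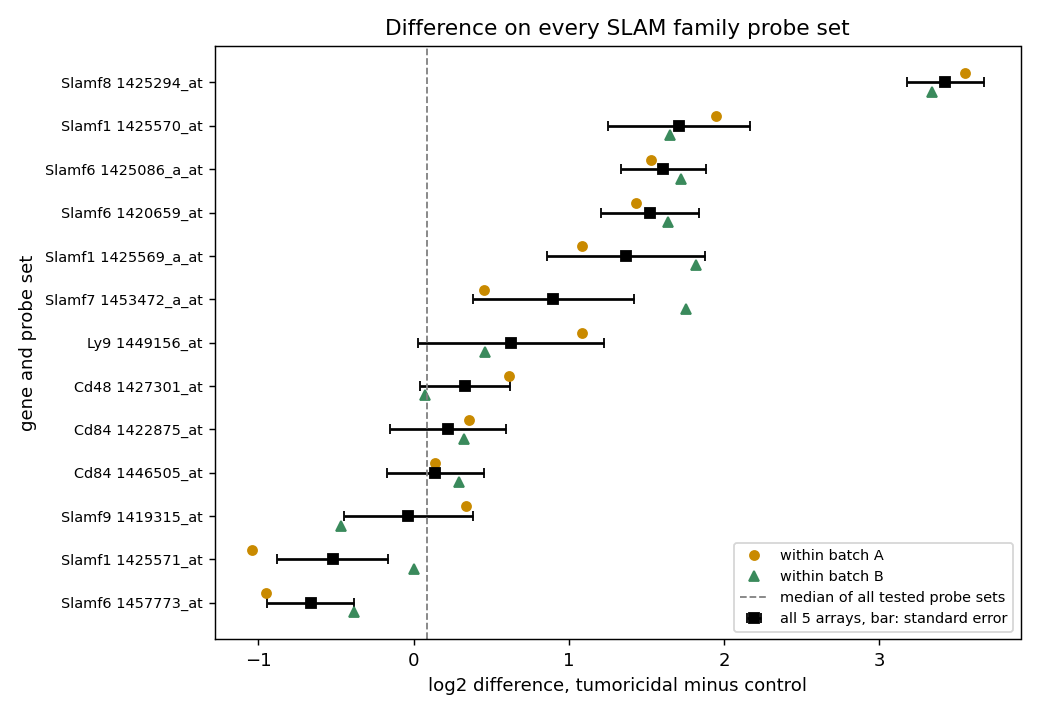
Log2 difference (tumoricidal minus control) on each of the 13 SLAM family probe sets: squares with standard error bars for all 5 arrays, circles within batch A, triangles within batch B, and a dashed line at the median of all tested probe sets (0.09). Slamf8 stands at 3.42, the brighter Slamf6 and Slamf1 probe sets between 1.37 and 1.71, and the 2 dim probe sets of these genes below 0.

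Over the family, read on each gene's brightest probe set, 7 of 8 log2 differences were positive, beside 58.4% of all tested probe sets. The family median, which counts Slamf8, was 0.76. The median was 0.09 over all tested probe sets and 0.13 over the brightest probe sets of named genes. Scaling moved that background: the median over all tested probe sets was -0.11 with the deposited scaling and 0.00160 with quantile normalization. There the family median was 0.53 and 0.61 and 6 of 8 members were positive, as Cd84 stood at -0.00574 and -0.04. Of all tested probe sets 40.3% and 50.1% were positive there. Groups did not overlap, with tumoricidal higher, in 3 of 8 members (Slamf8, Slamf6 and Slamf1), beside 13.3% of all tested probe sets.

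Slamf8 exceeded the other members by a wide margin. Its log2 difference was 2.80 above the median of the other 7 (0.63) and 1.71 above the next, Slamf1. This gap was 2.94 and 2.88 inside batches A and B, and it ran from 2.48 (without tumoricidal replicate 2) to 3.23 (without control replicate 1) over arrays left out. No test is given, since Slamf8 was picked for its difference. In their course over the 5 arrays, each centred on its own mean, the closest members were Cd48 and Cd84 (root mean square distance 0.25 on the log2 scale), and Slamf6 was closest to Slamf1 (0.36). Slamf8 was 0.95 from Slamf1 and 1.73 from Slamf9, the widest distance in the family.

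**Figure D3:**
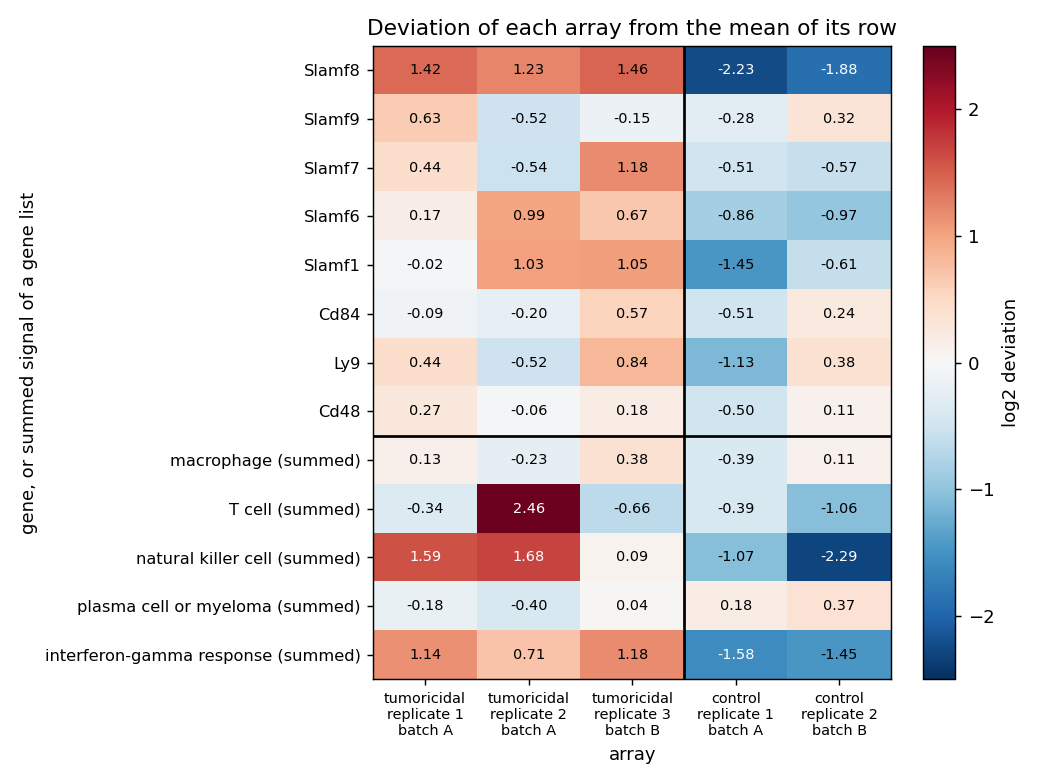
Log2 deviation of each array from the mean of its row, for the 8 members (above the line) and for the summed signal of 5 gene lists (below it), with tumoricidal arrays left of control arrays. Slamf8 is at least 1.23 above its mean on the tumoricidal arrays and at least 1.88 below it on the control arrays, and the T-cell sum is 2.46 above its mean on tumoricidal replicate 2 alone.

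The receptors that bind Cd48 are Cd244a and Cd2. Cd244a, a SLAM receptor of natural killer and other cells that lies outside the 8 members, had signals of 85.6, 91.2 and 35.6 in tumoricidal replicates 1 to 3, against 183 and 85.4 in control replicates 1 and 2 (log2 difference -0.94, SE 0.55). Its other probe set, 1426120_a_at, gave 41.8, 57.3 and 28.1 in tumoricidal samples and 107 and 86.8 in control samples (-1.24, SE 0.36), with no overlap, as in 7.6% of all tested probe sets that were lower throughout. Both Cd244a differences were thus negative, the first with overlapping groups, while the natural killer cell markers summed higher there. Cd2, the T-cell and natural killer cell receptor for Cd48, had 49.2, 163 and 29.8 in tumoricidal samples, against 29.1 and 14.8 in control samples (1.58, SE 0.76). It was highest on the array with the highest T-cell sum, and without that array the difference was 0.88. The remaining gene of this list, Hepacam, differed by -0.05 and lay near the floor. None of these 3 passed the threshold, and their median was -0.05 (0.01 with quantile normalization), beside 0.09 over all tested probe sets.

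Of 16 measured genes in a list for SLAM adaptors and signalling, 0 passed the threshold in limma, beside 0.0512% of all tested probe sets. Sh2d1b1, Sh2d1b2, Lck and Lyn of that list were not measured, as no probe set named any of them alone. Among the small adaptors, only Sh2d1a was thus read. In 8 the tumoricidal arrays were all above both controls, beside 13.3% of all tested probe sets. The median log2 difference of the 16 was 0.46 and all were positive, beside 58.4% of all tested probe sets. With the deposited scaling 14 were positive, beside 40.3%, and with quantile normalization 13, beside 50.1%. Sh2d1a, the SAP adaptor of T and natural killer cells, had 15.8, 52.7 and 7.01 in tumoricidal replicates 1 to 3 and was at the floor on both control arrays. Its difference was at least 1.91 on the log2 scale (SE 0.82), and it followed the T-cell and natural killer cell sums, with replicate 2 highest and replicate 3 lowest (at least 1.13 without replicate 2). Prkcq, a kinase of T-cell receptor signalling, had 46.4, 84 and 48.2 in tumoricidal samples, against 17.1 on control replicate 1 and a signal at the floor on control replicate 2. Its difference was at least 2.66 (SE 0.60), or at least 2.38 without tumoricidal replicate 2. Lat, the T-cell signalling scaffold, differed by at least 2.12 (SE 1.09), control replicate 1 being at the floor. Tumoricidal replicate 2 was again highest at 157, and without it the Lat difference was at least 1.35.

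Phosphatases of this list were read next, since SLAM tails can recruit some phosphatases. The inositol phosphatase Inpp5b, for which no link to SLAM tails is shown here, had the largest difference. Its signals were 409, 457 and 500.03 in tumoricidal samples and 186 and 241.5 in control samples (1.10, SE 0.25). Ptpn6, the tyrosine phosphatase SHP-1, differed by 1.05 (SE 0.30) on its brightest probe set and by 0.21 on the other. Inpp5d, the lipid phosphatase SHIP1, differed by 0.35 (SE 0.31) with overlapping groups, and Ptpn11, the phosphatase SHP-2, by 0.42 (SE 0.24).

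Among 14 measured genes of the phagosome and oxidase that mouse work ties to SLAM receptors, 0 passed the threshold, beside 0.0512% of all tested probe sets. Their median was 0.33, with 13 positive, beside 58.4% of all tested probe sets. With quantile normalization 8 were positive, beside 50.1%. Cybb, the catalytic subunit of the oxidase that Slamf8 is known to restrain, had 3713, 3483 and 4632 in tumoricidal samples and 2002 and 2124 in control samples (0.92, SE 0.25), and its other 2 probe sets gave 1.36 and 1.23. Cyba, its membrane partner, differed by 0.76 (SE 0.34). Itgb2, the beta chain that pairs with CD11b, differed by 0.60 (SE 0.31), and the signalling chain Fcer1g by 0.60 (SE 0.36). Itgam, which encodes CD11b and was the basis of the sort, differed by 0.31 (SE 0.52), and the signalling chain Tyrobp by 0.37 (SE 0.30). Becn1 and Pik3c3, which act with Slamf1 at phagosomes in mouse macrophages, differed by 0.21 and -0.09.

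All members lie on chromosome 1. RefSeq places Ly9, Slamf7, Cd48, Slamf1, Cd84 and Slamf6 in 1 cluster beside Cd244a, with 14 protein-coding genes between Slamf6 and Slamf9 and 4 between Slamf9 and Slamf8. Over this stretch and 3 genes on either side, 22 genes outside the 8 members were tested. The threshold was passed by 0 of these 22, beside 0.0512% of all tested probe sets. Their log2 differences ran from -1.17 (Casq1) to 1.37 (Igsf9), each with 1 array at the floor, and had a median of 0.02. The nearest measured genes on either side of Slamf8, Vsig8 and Dusp23, differed by -0.68 (SE 0.33) and -0.06 (SE 0.32). The 3.42 of Slamf8 was therefore not shared by the measured genes beside it, among which Vsig8 was near the floor. Among 30 measured genes of the wider locus list, which counts 8 members too, Slamf8 passed and 29 did not, with a median of 0.22, which was -0.01 with the deposited scaling and -0.04 with quantile normalization.

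**Figure D4:**
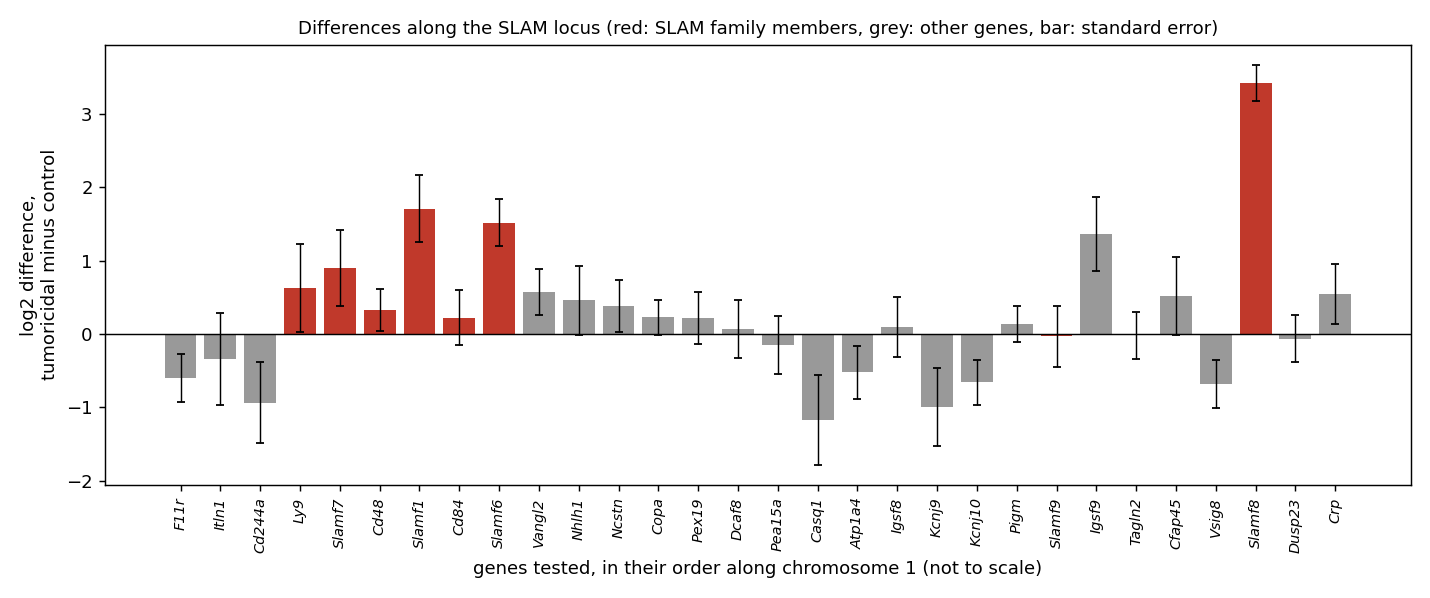
Log2 difference (tumoricidal minus control) with standard error bars for genes tested along the SLAM locus of chromosome 1, in gene order and not to scale. The 8 members are red and other genes, the related receptor Cd244a included, are grey. Slamf8 at 3.42 stands beside Vsig8 at -0.68 and Dusp23 at -0.06.

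The named genes whose course over the 5 arrays was most like that of Slamf8, by root mean square distance of centred log2 profiles among 17073 others, were Upp1 (0.16), AW112010 (0.21), Gbp2 (0.23), Gm4951 (0.26), Ubd (0.27), Calhm6 (0.28), Gbp2b (0.29) and Cnn3 (0.31). Upp1, a uridine phosphorylase, had 849, 620 and 641 in tumoricidal samples and 57.1 and 63.1 in control samples. Gbp2, a guanylate-binding protein induced by interferon, had 3164, 2167 and 2974 in tumoricidal samples and 187 and 202 in control samples. Calhm6 had 1738, 992 and 1655 in tumoricidal samples and 92 and 110.2 in control samples. All of these share libraries and were compared over the same contrast, so the likeness is a description. Among the other members, Slamf6 was closest to Sfmbt2 (0.11), Slamf1 to Clmn (0.25), Slamf7 to Slc22a4 (0.10), Slamf9 to Net1 (0.08), Cd48 to Cort (0.01), Cd84 to Mad2l1 (0.03) and Ly9 to Rnf25 (0.09). Slc22a4 and Cort had arrays at the floor, and Ubd was at the floor on both control arrays, so that its distance depends on the floor.

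RefSeq held promoters for 7 of the 8 genes most like Slamf8, and 3 of them (Gbp2, Calhm6 and Gbp2b) hold the response core found in Slamf8, beside 3.44% of all promoters. Windows of 30 bases around each match, with the match in capitals, are set beside that of Slamf8 so that the letters can be compared. They lie at chr1:172590564-172590593 (Slamf8, minus strand), chr3:142620594-142620623 (Gbp2, plus strand), chr10:34128017-34128046 (Calhm6, minus strand) and chr3:142594700-142594729 (Gbp2b, plus strand) of GRCm38.p6.
Slamf8: cccgggatgcTTTCGCTTTCaagacatctt
Gbp2: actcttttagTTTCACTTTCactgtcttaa
Calhm6: tgaaaaaaaaGAAAGTGAAAcccggaaggg
Gbp2b: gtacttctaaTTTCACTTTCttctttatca
The matches begin 15, 59, 64 and 137 bases before the start in Slamf8, Gbp2, Calhm6 and Gbp2b. Of 16 genes of the interferon-gamma list with a promoter sequence, 9 hold the core, beside 3.44% of all promoters. The gamma-activated site is in 6 of them, beside 8.3%, and the composite in 2, beside 2.72%, while Slamf8 has neither. The motifs and this list were picked with results of these data known, so the counts are a description. That list is a yardstick for Slamf8: of 23 measured genes, 5 rose and 18 did not pass, beside 0.0341% of all tested probe sets called higher. Its median was 2.49, and all 23 had tumoricidal arrays above both controls, as did Slamf8 and 13.3% of all tested probe sets. Slamf8 thus lay above the list's median, and Cxcl9 (6.02), Gbp8 (4.62), Gbp6 (4.46) and Gbp2b (3.96) were among the genes above it.

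The marker lists held 0 genes past the threshold, beside 0.0512% of all tested probe sets in either direction, so nothing is read from that count. Median log2 differences were 0.31 for macrophages (Aif1 1.14, Fcgr3 0.57), 0.36 for dendritic cells (Itgax 1.89, Siglech -1.66) and 1.64 for T cells (Cd247 2.32, Cd3g 2.28). They were 2.30 for natural killer cells (Gzmb 3.47, Gzma 2.82), -0.51 for plasma cells (Pou2af1 -3.24, Jchain -2.80, with Xbp1 at 0.30 and Prdm1 at 0.66 among the 5 of 11 that were positive) and -0.09 for B cells (Cd79b -0.91, Cd22 0.53). For eosinophils, mast cells and basophils the median was 0.75 (Mcpt8 3.33, Siglecf 2.28), and for neutrophils 0.91 (Cxcr2 1.47, Lcn2 1.22). The first 2 markers named for each list are those with the largest differences. Negative differences were seen in 2 of 13 macrophage, 4 of 10 dendritic cell, 2 of 13 T-cell and 0 of 11 natural killer cell markers. They were also seen in 4 of 7 B-cell, 1 of 10 eosinophil, mast cell and basophil and 2 of 9 neutrophil markers. Tumoricidal replicate 2 alone held a high T-cell sum (1936). Cd247, Siglech and Mcpt8 each had at least 1 array at the floor. With quantile normalization the macrophage median was 0.00725. Slamf8, which was picked for its difference, differed by more than any of the 13 macrophage markers, of which Aif1 was the highest. Gzmb (3.47) lay above the 3.42 of Slamf8, and Mcpt8 (3.33) just below it. What part other cells in the sort had in the Slamf8 value was not tested.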

How the data were processed

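A single table deposited by the authors holds the signal intensity, on a linear scale, of every probe set on 5 Affymetrix arrays, for which 6 µg of total RNA were labelled, per the labels' protocols. How probes were summarised and scaled, and with what software, is not given in the sources used here. However, the mean of each array after trimming 2% at either end was 100.0, so the values were already scaled. Here the 64 control probe sets were removed, arrays were scaled to a common median (their medians differed by up to 1.47 times), signals under the pooled 25th percentile (4.79) were raised to it and log2 was taken. No test was made of the 3984 probe sets at that floor throughout. The other 41053 were fitted together with limma (lmFit and eBayes, two-sided, no covariate), and p-values were adjusted by Benjamini-Hochberg over all of them at a threshold of 0.05. Adjusted p-values in the text are from this fit. It was tested on simulated data with independent noise, no batches and no floor, so that test does not bear on batch or floor. Where replicates came from separate animals is not stated, and p-values then measure the spread between these samples.

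Genes were named from the platform annotation, in which 34945 probe sets have 1 symbol, 932 several and 9160 none, and symbols were checked by Entrez identifier against RefSeq. Where several probe sets name a gene, the one with the highest mean stands for it. Members and lists were chosen with earlier results of these data known. Named genes were all members, the 4 (pathway lists) or 2 (marker lists) with the largest differences and the genes most like each member. Further list members given were picked with their values in view, as were the promoter motifs. Some genes of the lists are not analysed here. The tools were limma 3.58.1 under R 4.3.3, and matplotlib 3.10.9 under Python 3.11.15. Alternatives covered scaling, floor, filter, variance model, arrays left out, blocks and the choice of probe set.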

Additional observations from a re-analysis of the deposited data

How the results depend on the processing

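The Slamf8 difference was positive under all 18 alternatives. Against 3.42, it was 3.20 with the deposited scaling, 3.21 with quantile normalization and 3.23 on log2(signal + 16), each a shift larger than its spread within groups. Its excess over the median of the other members (2.80) was 3.05 with the replicate number as a block and ran from 2.48 to 3.23 with single arrays left out. In limma, 1 member passed the threshold. That count was 0 with the array batch as a block, with the floor at the 10th percentile, with the replicate block and with any single array left out (0 in each case). Without 1 control array, the lone control is assumed to vary like the tumoricidal group. All probe sets past the threshold numbered 21, against 0 under each of those settings (unadjusted p under 0.05 at 4117 with the batch block, 3009 with the lower floor, 2036 with the replicate block and 3036 to 5565 with arrays left out), 202 with a variance trend, 71 on log2(signal + 16), 62 with no filter (21 higher, 41 lower, against 14 and 7) and 193 above the median. In the main limma fit 3280 probe sets had an unadjusted p under 0.05. Leaving arrays out and adding blocks leave fewer samples or residual degrees of freedom. The cause of the lost calls was not tested for these settings or for the lower floor. Genes of the pathway lists past the threshold, an alternative added after seeing the data, numbered 6, against 19 with a variance trend, 14 on log2(signal + 16), 18 above the median, 2 with no filter and 0 with either block, the lower floor or any array left out. The labels give both groups replicate numbers 1 and 2 without pairing them: deviations of same-numbered arrays correlated at 0.02 and -0.24 over probe sets. Within a batch, and for the mean over a gene's probe sets, there is no adjusted p. Averaged over its probe sets, Slamf6 was at 0.82 and Slamf1 at 0.85, as each has a dim probe set with a negative difference, which for Slamf1 rests on 1 array above the floor. Arrays give no counts, and signals under the floor have no order.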
